A study of Homo sapiens with 21 samples.

Results

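The lysosome genes described here are 31 genes that code for enzymes of the lysosome, proteins of its membrane, subunits of its proton pump and 2 proteins that tie it to transcription and autophagy. They were chosen by name, from a list of lysosomal hydrolases, membrane proteins and regulators, with earlier results of these data known, and the rule uses no measured value. Of the 17691 gene symbols in the table all 31 were present. All 31 passed the filter on low values (at least 1 TPM in at least 3 libraries), as did 12559 genes in all, and each reached 1 TPM in some library of all 7 groups. TPM is a length-scaled share of each library, so levels of different genes can be compared. CTSH was the only member with values under 1 TPM, in 2 of the 21 libraries.

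RNA came from MM.1S, a line grown from the peripheral blood of a person with multiple myeloma, a cancer of plasma cells. The 7 groups had 3 libraries each. In the drug series, cells were left untreated (listed at 0 h) or collected 24, 48 or 72 h after pomalidomide was added at 1 µM. No untreated group is listed at the later times, so time and drug cannot be told apart in the comparisons with untreated cells. Pomalidomide binds cereblon, part of a ubiquitin ligase, and so directs transcription factors such as Ikaros and Aiolos to degradation. In the hairpin series, cells were transduced with lentivirus for a short hairpin RNA against ARID2, a subunit of the PBAF chromatin remodelling complex, or against Aiolos (gene IKZF3), each for 72 h, beside a group labelled control knockdown. Which hairpin the control carried, for how long, and how many hairpins each target had is not given in the sources used here. All groups are 1 cell line, without a drug vehicle group or a second line named in the labels. The submitters call the libraries of a group biological replicates and name no cultures or days. What the p-values set a difference against is therefore the scatter of these libraries, which may be technical.

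Lysosomes are acid compartments in which cells break down proteins, glycans, lipids and whole organelles. A proton pump, the V-ATPase, keeps them acid. Their soluble enzymes are made in the endoplasmic reticulum and carried from the Golgi apparatus, many of them by a mannose 6-phosphate tag. The transcription factor TFEB and its relatives bind E-box motifs in the promoters of many lysosome genes, and TFEB activity is set largely by phosphorylation and its place in the cell, which RNA levels do not report. Plasma cells secrete large amounts of antibody and depend on protein disposal by the proteasome and by autophagy, which ends in the lysosome.

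The whole-series facts that touch these genes are few. TPM over all listed genes came to 951444 to 968652 in the 21 libraries, sequencing depth is unknown since TPM keeps none, and correlations of log2 values were 0.993 to 0.996 within groups and 0.908 to 0.987 between groups. With its own hairpin, ARID2 went from 26, 25.4 and 25.4 TPM in control libraries to 12.4, 12.2 and 12.1 TPM, a log2 difference of -1.01 ± 0.07 (adjusted p = 8.13e-11, limma). With the hairpin labelled against Aiolos, IKZF3 went from 83.5, 79.2 and 81.3 TPM in control libraries to 127, 121 and 141 TPM, higher by 0.67 ± 0.05 (adjusted p = 1.92e-10, limma). The RNA of the targeted gene therefore goes against that label, and every result for this group is given for the libraries labelled Aiolos knockdown. The rise over control was not particular to this group. IKZF3 was at 119.5 ± 1.93 TPM (SD, n = 3) with ARID2 knockdown and 96.4 ± 1.77 in untreated cells. It was at 115.5 ± 6.3, 123.1 ± 2.64 and 111.6 ± 4.7 TPM at 24, 48 and 72 h of pomalidomide. Control knockdown had the lowest mean of all groups, at 81.35 ± 2.19 TPM. The plasma cell markers fixed for the label were all present, among them SDC1 at 686 ± 8.31 TPM (SD, n = 3), TNFRSF17 at 955 ± 29 TPM and XBP1 at 1086 ± 13.2 TPM in untreated cells. Of the 10 plasma cell markers 3 were higher and 5 lower at 72 h, against 48.1% higher and 31.6% lower among all tested genes, with a summed level of 10930 ± 102 TPM in untreated cells and 9034 ± 158 TPM at 72 h. Their sum was 11610 ± 113 TPM in control knockdown, 10350 ± 233 TPM with ARID2 knockdown and 6839 ± 209 TPM in the labelled Aiolos group. In that group 2 of the 10 were higher and 7 lower than in control (median -0.74), against 37.2% and 30.7% of all tested genes. The part of these markers in the lysosome results was not tested. Mitochondrial mRNAs held 15.5% of the listed TPM in untreated cells and 13.7% at 72 h, 17.2% in control knockdown, 18.5% in ARID2 knockdown and 15.7% in the labelled libraries. With them removed and TPM rescaled, 22 lysosome genes were higher and 9 lower at 72 h.

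Promoter sequences are shown for the members that carry the E-box core CACGTG, since a pattern of values by this motif is described further on. RefSeq promoter windows (GRCh38.p14), from 250 bases before to 50 bases after the annotated start, matched 24 of the 31 members by symbol. LAMP2, CTSB, CTSS, HEXA, PSAP, ASAH1 and ATP6V1H had no entry. CACGTG, which reads the same on both strands, was found in 8 of the 24 windows (33.3%), against 1005 of the 9755 windows of tested genes (10.3%). The longer form TCACGTGA, which contains CACGTG and is also a palindrome, was found in 5 of the 24 (20.8%), against 196 of the 9755 (2.01%). These shares describe letters in a window and no binding was measured. Each stretch below reads 5′ to 3′ on the gene's strand, lies before the start site, and has CACGTG in capitals.

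LAMP1 had 6 copies of CACGTG in its window. The 200 bases at chr13:113297032-113297231 (plus strand) hold 5 of them, 4 in a row of near-repeats, and the other runs across the start site and is not shown. MCOLN1 had 2, both within TCACGTGA, at chr19:7522568-7522623 (plus strand), and GAA had 2 at chr17:80101490-80101555 (plus strand). CTSA had 2 at chr20:45891290-45891318 (plus strand). Single copies were at chr16:67481199-67481228 for ATP6V0D1, chr6:31862927-31862962 for NEU1, chr11:1763957-1763986 for CTSD and chr12:55729172-55729201 for CD63, all on the minus strand. In the GENCODE 29 annotation the stretches of CTSA, CTSD, CD63 and ATP6V0D1 lie within annotated untranslated regions. The stretches of LAMP1, MCOLN1 and NEU1 overlap none. That of GAA was cut short after its last CACGTG to end outside one, so its lack of overlap follows from the cut.
LAMP1: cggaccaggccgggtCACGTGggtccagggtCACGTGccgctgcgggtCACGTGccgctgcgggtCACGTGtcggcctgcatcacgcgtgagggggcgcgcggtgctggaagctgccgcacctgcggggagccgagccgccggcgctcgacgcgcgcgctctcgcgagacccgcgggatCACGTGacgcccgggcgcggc
MCOLN1: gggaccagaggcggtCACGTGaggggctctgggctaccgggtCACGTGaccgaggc
GAA: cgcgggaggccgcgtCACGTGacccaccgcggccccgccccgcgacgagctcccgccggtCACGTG
CTSA: tgtCACGTGgcgccggagttCACGTGact
ATP6V0D1: cccccttatggtCACGTGaggcgcttgcgc
NEU1: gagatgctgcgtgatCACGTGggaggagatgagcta
CTSD: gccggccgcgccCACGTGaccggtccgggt
CD63: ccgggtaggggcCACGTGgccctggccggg

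In untreated cells the members spanned a wide range of levels. PSAP, the precursor of the saposins that help lysosomal enzymes reach sphingolipids, was the most abundant at 1095 ± 11.9 TPM (SD, n = 3) and held 33.2% of the summed TPM of the 31 genes. The next were CTSD (254 ± 3.81 TPM), CREG1 (249 ± 1.23), GUSB (213 ± 3.3) and SQSTM1 (188 ± 3.93). At the low end stood TFEB (8.84 ± 0.889 TPM), CD68 (4.74 ± 0.989), CTSH (2.53 ± 0.146) and GAA (2.43 ± 0.511). The summed level was 3300 ± 31 TPM in untreated cells, 4299 ± 63.3 at 24 h, 5497 ± 63.5 at 48 h and 5304 ± 80 at 72 h of pomalidomide (SD, n = 3 each). The sum was 3936 ± 30.4 TPM in control knockdown, 4040 ± 17.8 with ARID2 knockdown and 4724 ± 141 in the labelled Aiolos group. PSAP held 39% of the sum at 72 h.

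**Figure D1:**
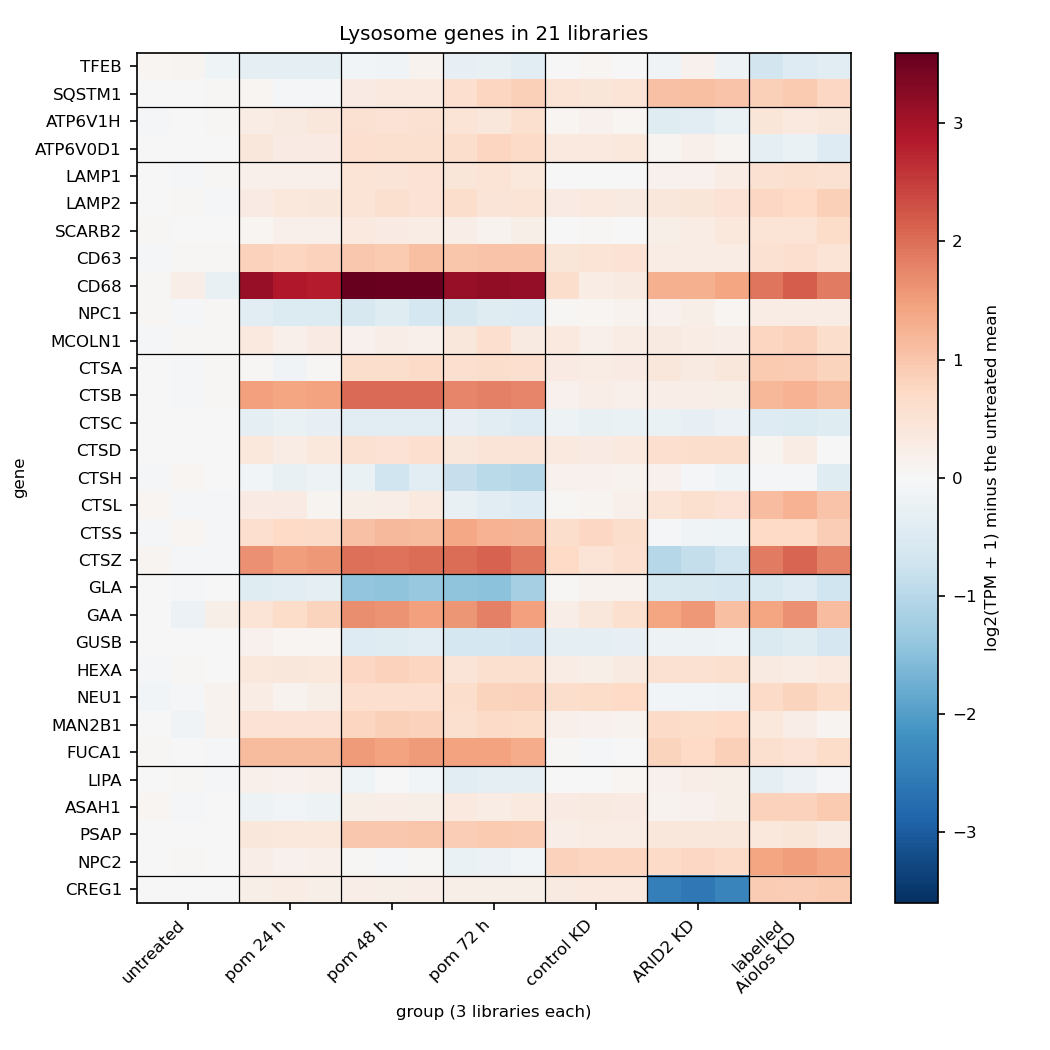
Levels of the 31 lysosome genes in the 21 libraries as log2(TPM + 1) minus the mean of the untreated libraries (colour), with genes in rows by role and 3 libraries per group in columns. CD68, CTSB, CTSZ, GAA and FUCA1 are the reddest rows of the drug groups, GLA turns blue at 48 and 72 h, and the darkest blue cells are CREG1 in the 3 ARID2 knockdown libraries.

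Most lysosome genes were higher with pomalidomide at each time, and a minority were lower. At 24 h 23 members were higher, 5 lower and 3 did not pass (adjusted p under 0.05, limma), where 66.1% of all tested genes passed, 35.1% being higher. At 48 h the counts were 23 higher, 5 lower and 3 not passed, against 43.8% higher and 34.8% lower among all tested genes. At 72 h they were 22 higher, 9 lower and 0 not passed, against 48.1% and 31.6%. The median log2 change of the members was 0.23 at 24 h, 0.53 at 48 h and 0.49 at 72 h, where the median of all tested genes was 0.03, 0.08 and 0.15. Here and below, values after ± are standard errors from limma for log2 changes and SDs of 3 libraries for TPM. Since the median gene moved by 0.15 at 72 h, values relative to it are given beside the members' 72 h changes. The members' median at 72 h was 0.34 on that relative scale. Rises of at least 2-fold in TPM + 1 numbered 4 at 24 h, 7 at 48 h and 7 at 72 h, where 4.98%, 10.7% and 10.9% of all tested genes rose that far. The only fall of that size among the members was GLA, at 48 and 72 h, against 8.05% and 7.80% of all tested genes. CTSH, a low gene, fell more than 2-fold in TPM itself, from 2.53 to 0.845 TPM at 72 h, but by 0.94 on the log2 scale of TPM + 1. These shares depend in part on scaling. With TPM rescaled by the median of ratios, 20 members were higher and 9 lower at 72 h. Of all tested genes 39.2% were then higher and 39.2% lower, where 48.1% and 31.6% were before. The 3 drug comparisons share their untreated libraries. Lack of overlap between the groups compared, given below for single members, was common among the 12559 tested genes. At 24 h 4545 of them were higher without overlap and 4075 lower. At 48 h these counts were 5549 and 4477, and at 72 h 6093 and 4009. Of the members 22 were higher and 9 lower without overlap at 72 h.

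**Figure D2:**
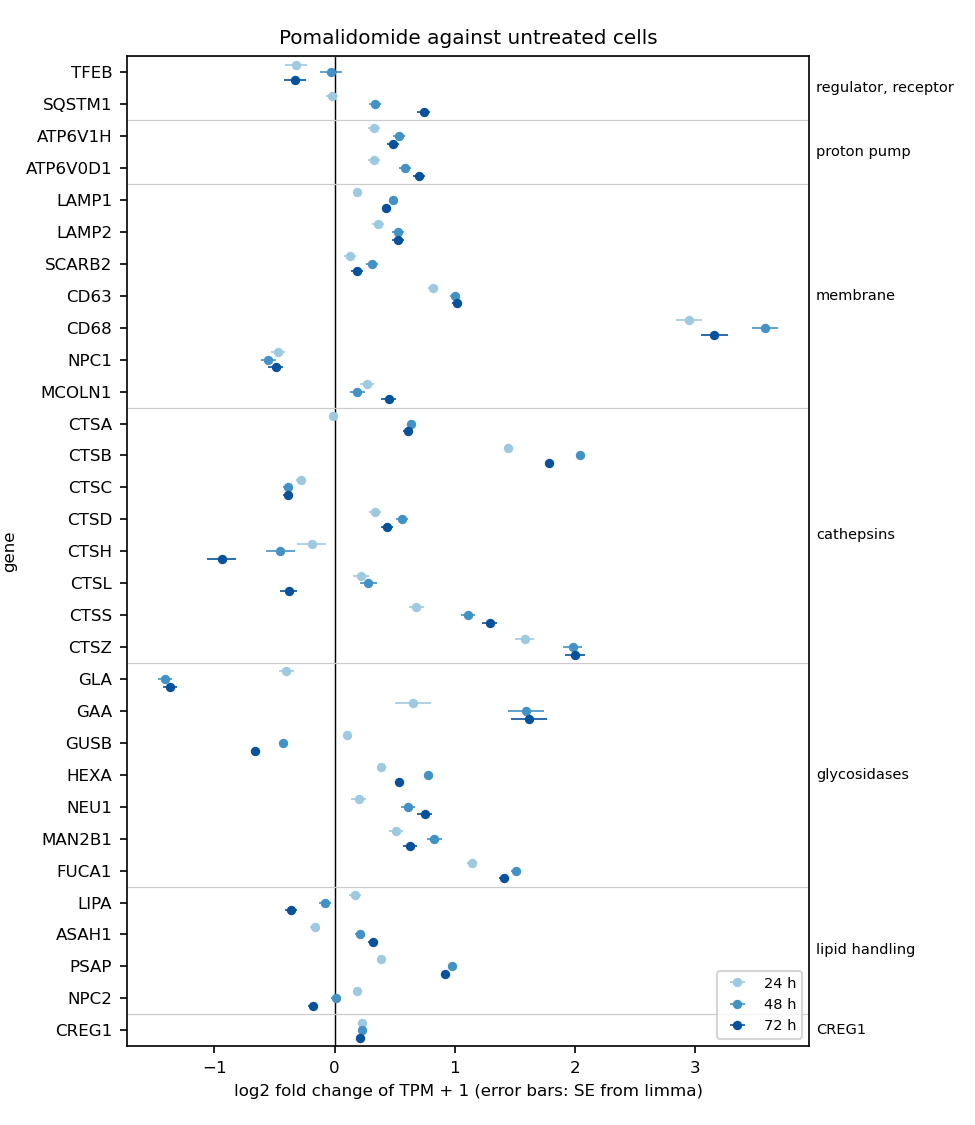
Log2 fold change of TPM + 1 against untreated cells (x axis) for each of the 31 genes (rows, by role) at 24, 48 and 72 h of pomalidomide, with bars for the standard error from limma. Points right of the line at 0 are higher with the drug, CD68 stands farthest to the right at 3.58 for 48 h, and GLA farthest to the left at -1.41 for 48 h.

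Of the regulators, TFEB RNA was somewhat lower and SQSTM1 RNA higher late. TFEB was at 9.24, 9.47 and 7.83 TPM in the untreated libraries, 6.85, 6.81 and 6.87 at 24 h, 8.23, 8.05 and 9.71 at 48 h and 7.04, 7.1 and 6.38 at 72 h. All the 24 and 72 h values lay below the untreated ones, whereas the 48 h values overlapped them. The log2 change was -0.32 ± 0.09 at 24 h (adjusted p = 0.00501), -0.03 ± 0.09 at 48 h (adjusted p = 0.801) and -0.33 ± 0.09 at 72 h (adjusted p = 0.00361; relative -0.48), all from limma. SQSTM1 was at 186, 185 and 193 TPM in the untreated libraries, 196, 178 and 184 at 24 h, 232, 239 and 242 at 48 h and 286, 319 and 343 at 72 h. This gene codes for p62, which brings ubiquitinated cargo to autophagosomes and is itself degraded there. SQSTM1 at 24 h overlapped the untreated libraries (log2 change -0.02 ± 0.05, adjusted p = 0.788, limma). It was higher without overlap at 48 h (0.34 ± 0.05, adjusted p = 8.69e-06, limma) and 72 h (0.74 ± 0.05, relative 0.59, adjusted p = 8.48e-11, limma). MRNIP on the opposite strand shares 20.7% of SQSTM1's exon bases, and the library kit does not mark strand.

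Both pump subunits rose. ATP6V1H, a regulatory subunit of the cytosolic part of the V-ATPase, went from 24.5 ± 0.784 TPM (SD, n = 3) to 36.2 ± 0.401 at 48 h and 35 ± 2.03 at 72 h, log2 changes of 0.33 ± 0.05, 0.54 ± 0.05 and 0.49 ± 0.05 at the 3 times in order. ATP6V0D1, a subunit of the membrane part, went from 40.4 ± 0.162 to 66.4 ± 3.48 TPM at 72 h, with changes of 0.33 ± 0.05, 0.59 ± 0.05 and 0.70 ± 0.05. Relative to the median gene the 72 h changes were 0.34 and 0.55. Neither gene's treated libraries overlapped the untreated ones at any time.

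Of the 7 membrane proteins, 6 were higher and NPC1 lower at each of the 3 times. CD68, a heavily glycosylated relative of the LAMP proteins best known from macrophages, changed most of all 31 genes. CD68 was at 4.88, 5.65 and 3.68 TPM in the untreated libraries, 48.6, 40.9 and 39.2 at 24 h, 68, 66 and 66.3 at 48 h and 48.8, 51.2 and 49.5 at 72 h. Every treated library exceeded every untreated one many times over, and the 48 h libraries stood above those of the other times. The log2 change was 2.95 ± 0.11 at 24 h, 3.58 ± 0.11 at 48 h (adjusted p = 1.67e-16, limma) and 3.16 ± 0.11 at 72 h (relative 3.01). In GENCODE 29, 81.7% of CD68's exon bases lie also in AC016876.2, a transcript on the same strand that the table does not list, and the sources used here do not say how shared reads were assigned. CD63 was at 129, 138 and 138 TPM in the untreated libraries, 240.2, 233 and 241 at 24 h, 267, 262 and 285 at 48 h and 269, 277 and 276 at 72 h. CD63 is a tetraspanin of late endosomes, lysosomes and exosomes, and its treated libraries were higher without overlap at all times. Its changes were 0.82 ± 0.04, 1.00 ± 0.04 and 1.02 ± 0.04 (relative 0.86; adjusted p = 8.19e-16 at 72 h, limma).

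LAMP1 and LAMP2, the glycoproteins that coat the inner face of the lysosomal membrane, moved less. LAMP1 was at 144, 140.3 and 149 TPM in the untreated libraries, 165, 165 and 164 at 24 h, 203, 201 and 208 at 48 h and 194, 202 and 189.6 at 72 h. These values rose without overlap at each time, by 0.19 ± 0.03, 0.49 ± 0.03 and 0.43 ± 0.03 (relative 0.28; adjusted p = 1.74e-10 at 72 h, limma). LAMP2 changed by 0.36 ± 0.05, 0.53 ± 0.05 and 0.53 ± 0.05 (relative 0.38), from 66 ± 2.9 TPM to 96.2 ± 6.23 TPM at 72 h. MCOLN1, a calcium channel of the membrane, changed by 0.27 ± 0.06, 0.19 ± 0.06 and 0.45 ± 0.06 (relative 0.29), and its 48 h call was lost with median-of-ratios scaling and without untreated replicate 1. SCARB2, the receptor that carries glucocerebrosidase to lysosomes, had small rises of 0.13 ± 0.05, 0.31 ± 0.05 and 0.19 ± 0.05. The 24 h call of SCARB2 was lost with median-of-ratios scaling and without any of 4 single libraries, untreated replicates 2 and 3 and 24 h replicates 2 and 3. Its 72 h rise was 0.04 relative to the median gene and was not called with median-of-ratios scaling. NPC1, which exports cholesterol through the membrane, fell by 0.47, 0.55 and 0.49 on the log2 scale (relative -0.64 at 72 h), from 17.8 ± 0.886 TPM to 12.4 ± 0.728 TPM at 72 h.

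The 8 cathepsins split into large rises, moderate rises and falls. CTSB was at 90.9, 88 and 92.9 TPM in the untreated libraries, 252, 242 and 248 at 24 h, 376, 376 and 377 at 48 h and 308, 324 and 308 at 72 h. CTSB, a cysteine protease of broad tissue range, was higher without overlap at each time, with all 48 h libraries above all 72 h libraries. Its changes were 1.44 ± 0.03, 2.04 ± 0.03 (adjusted p = 7.04e-21, limma) and 1.78 ± 0.03 (relative 1.63). CTSZ was at 20.5, 18.5 and 18.2 TPM in the untreated libraries, 61.4, 56.4 and 58.5 at 24 h, 78.1, 76.3 and 79.7 at 48 h and 79.4, 85.8 and 73.2 at 72 h. CTSZ, a carboxypeptidase, was likewise higher without overlap, and its 48 and 72 h libraries overlapped each other. The changes were 1.58 ± 0.08, 1.98 ± 0.08 and 2.0 ± 0.08 (relative 1.85; adjusted p = 1.44e-14 at 72 h, limma). CTSS was at 24, 26.2 and 24.2 TPM in the untreated libraries, 38.2, 41.8 and 40.8 at 24 h, 52.6, 56.4 and 55.4 at 48 h and 67, 59.8 and 59.2 at 72 h. CTSS, which trims the invariant chain of MHC class II molecules in antigen-presenting cells, was higher at each time, by 0.68 ± 0.06, 1.11 ± 0.06 and 1.29 ± 0.06 (relative 1.13; adjusted p = 3.64e-14 at 72 h, limma). Its 72 h libraries lay above those of 48 h, a step of 0.17 ± 0.06 whose call was lost under 5 alternatives: median-of-ratios scaling, quantile normalization, without mitochondrial mRNA, without 48 h replicate 1 and without 72 h replicate 1.

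CTSD, the main aspartic protease of lysosomes, showed a moderate rise. CTSD was at 251, 252 and 258 TPM in the untreated libraries, 329, 303 and 330.1 at 24 h, 372, 367 and 386 at 48 h and 334, 349.5 and 348 at 72 h. The treated libraries did not overlap the untreated ones, and the changes were 0.34 ± 0.05, 0.56 ± 0.05 and 0.44 ± 0.05 (relative 0.28; adjusted p = 7.22e-08 at 72 h, limma). A same-strand gene model, AC068580.4, shares 41.7% of CTSD's exon bases and is listed in the table. CTSA, which protects the sialidase NEU1 and beta-galactosidase in a complex, did not pass at 24 h (-0.01 ± 0.04, adjusted p = 0.776, limma) and rose by 0.64 ± 0.04 at 48 h and 0.61 ± 0.04 at 72 h (relative 0.46). CTSC, which activates granule serine proteases, fell by 0.28, 0.39 and 0.39 on the log2 scale (relative -0.54 at 72 h). CTSH, an aminopeptidase, was low throughout and went from 2.53 ± 0.146 TPM to 0.845 ± 0.14 TPM at 72 h, with changes of -0.19 ± 0.12 (adjusted p = 0.186), -0.45 ± 0.12 (adjusted p = 0.0027) and -0.94 ± 0.12 (relative -1.09; adjusted p = 8.25e-07, limma).

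CTSL changed direction over the course. CTSL was at 31.2, 28.5 and 28.8 TPM in the untreated libraries, 36.2, 36.2 and 31.4 at 24 h, 34.4, 35.3 and 38.2 at 48 h and 24.1, 22 and 21.1 at 72 h. This cysteine endopeptidase lay above the untreated range at 24 and 48 h and below it at 72 h, with no overlap at any time. The changes were 0.22 ± 0.07 (adjusted p = 0.00604), 0.28 ± 0.07 (adjusted p = 7.79e-04) and -0.38 ± 0.07 (relative -0.53; adjusted p = 2.77e-05), from limma. CTSL has pseudogene copies in the annotation, and how reads shared with them were counted is not given in the sources used here.

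Among the 7 enzymes that cut sugars, 5 were higher and 2 lower at 72 h. FUCA1 was at 89.9, 88.8 and 85.6 TPM in the untreated libraries, 195, 197 and 195 at 24 h, 255, 244 and 259 at 48 h and 242, 239.7 and 224 at 72 h. FUCA1, the alpha-fucosidase, rose without overlap by 1.14 ± 0.04, 1.51 ± 0.04 and 1.41 ± 0.04 (relative 1.25; adjusted p = 1.36e-16 at 72 h, limma). GAA was at 2.43, 1.92 and 2.94 TPM in the untreated libraries, 3.75, 4.41 and 4.97 at 24 h, 9.92, 9.36 and 8.53 at 48 h and 9.15, 11 and 8.4 at 72 h. GAA, the acid alpha-glucosidase that degrades glycogen and is missing in Pompe disease, was the least abundant member in untreated cells. Its treated libraries were all above the untreated ones, by 0.65 ± 0.15, 1.59 ± 0.15 and 1.62 ± 0.15 (relative 1.47; adjusted p = 3.52e-09 at 72 h, limma), with the widest standard errors of the group. MAN2B1 was at 28.7, 26.3 and 31.2 TPM in the untreated libraries, 41.4, 41.2 and 41.1 at 24 h, 49.6, 53 and 52.2 at 48 h and 42.8, 46.7 and 45.5 at 72 h. MAN2B1, the acid alpha-mannosidase, was higher without overlap at each time, by 0.51 ± 0.06, 0.83 ± 0.06 and 0.63 ± 0.06 (relative 0.48; adjusted p = 8.79e-09 at 72 h, limma). HEXA, the alpha subunit of beta-hexosaminidase A, rose by 0.39 ± 0.04, 0.78 ± 0.04 and 0.54 ± 0.04 (relative 0.38), and NEU1 by 0.20 ± 0.06, 0.61 ± 0.06 and 0.75 ± 0.06 (relative 0.60).

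GLA, the alpha-galactosidase whose loss causes Fabry disease, went the other way. GLA was at 84, 81.6 and 84.2 TPM in the untreated libraries, 60.9, 62.1 and 65 at 24 h, 30.5, 30.2 and 31.6 at 48 h and 30.1, 29.2 and 35.8 at 72 h. The libraries fell below the untreated range at 24 h and further at 48 h, and those of 48 and 72 h overlapped. The changes were -0.40 ± 0.06 (adjusted p = 1.76e-05), -1.41 ± 0.06 (adjusted p = 6.65e-14) and -1.37 ± 0.06 (relative -1.52; adjusted p = 1.01e-13), from limma. GUSB, the beta-glucuronidase often used as a reference gene for quantitative PCR, did not stay level. Its mean was 213 ± 3.3 TPM in untreated cells, 228 ± 6.36 at 24 h, 158 ± 3.33 at 48 h and 134 ± 2.71 at 72 h (SD, n = 3). The GUSB change was 0.10 ± 0.03 at 24 h, a call that went missing without untreated replicate 2, without 24 h replicate 1 or with median-of-ratios scaling, and -0.43 ± 0.03 and -0.66 ± 0.03 (relative -0.81) later. GUSB has several pseudogene copies in the annotation, with the same limit on shared reads as CTSL.

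The genes of lipid handling were mixed. PSAP was at 1101, 1081 and 1103 TPM in the untreated libraries, 1457, 1416 and 1419.9 at 24 h, 2138, 2155 and 2178 at 48 h and 2041, 2106 and 2055 at 72 h. PSAP was higher without overlap at each time, by 0.39 ± 0.02, 0.98 ± 0.02 and 0.92 ± 0.02 (relative 0.76; adjusted p = 1.07e-17 at 72 h, limma). LIPA, the acid lipase that splits cholesteryl esters and triglycerides, changed by 0.17 ± 0.05, -0.08 ± 0.05 (adjusted p = 0.17, limma) and -0.36 ± 0.05 (relative -0.52). With median-of-ratios scaling the 24 h call of LIPA was lost and a 48 h fall of 0.16 on the log2 scale was called (adjusted p = 0.00911, limma). ASAH1, the acid ceramidase, was lower at 24 h (-0.16 ± 0.04) and higher at 48 h (0.21 ± 0.04) and 72 h (0.32 ± 0.04, relative 0.17). NPC2, the soluble partner that hands cholesterol to NPC1, was higher at 24 h (0.19 ± 0.04), near the untreated level at 48 h (0.01 ± 0.04, adjusted p = 0.875, limma) and lower at 72 h (-0.18 ± 0.04, relative -0.34). CREG1 was at 248, 249.9 and 248 TPM in the untreated libraries, 288, 297 and 288 at 24 h, 293, 287 and 293 at 48 h and 289, 290.4 and 287 at 72 h. CREG1, a small glycoprotein found in lysosomes and secreted, showed a small rise without overlap, by 0.23 ± 0.03, 0.23 ± 0.03 and 0.21 ± 0.03. At 72 h it was 0.06 relative to the median gene, and median-of-ratios scaling removed that call.

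**Figure D3:**
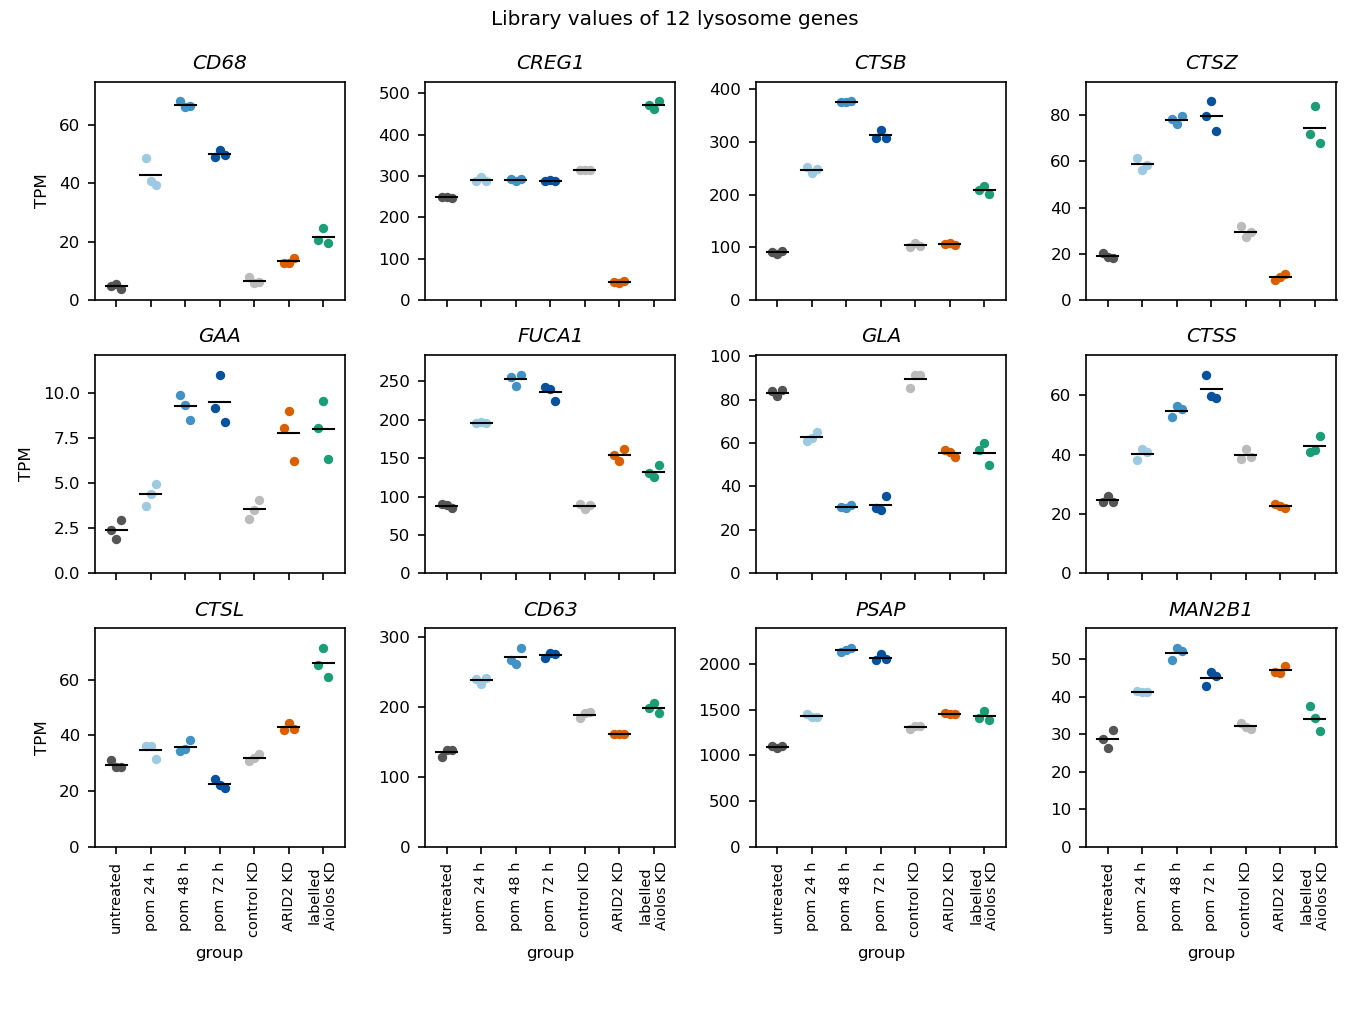
TPM (linear y axis from 0) in each of the 3 libraries of the 7 groups (points) with the group mean (line), for 12 lysosome genes. These had the largest called log2 changes over the drug and hairpin comparisons among genes without overlap between the groups and with a mean of at least 5 TPM in the higher group. The ARID2 knockdown libraries hold the lowest CREG1 and CTSZ values of the 21, and CD68, CTSB, FUCA1 and PSAP peak at 48 h of pomalidomide.

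Between successive times, fewer members passed the test from 48 to 72 h than from 24 to 48 h. From 24 to 48 h 21 members rose, 5 fell and 5 did not pass (background 32.1% higher and 26.1% lower), with a median change of 0.26 against 0.04 for all tested genes. PSAP rose by 0.59 ± 0.02, CTSA by 0.66 ± 0.04, CTSB by 0.60 ± 0.03, CD68 by 0.63 ± 0.11 and GAA by 0.94 ± 0.15 in this step, while GLA fell by 1.00 on the log2 scale. For CD68, CTSB, CTSZ (0.40 ± 0.08) and FUCA1 (0.37 ± 0.04) this step was smaller than the change already present at 24 h. From 48 to 72 h 5 members were higher, 13 lower and 13 not passed (background 31.6% higher and 16.5% lower), with a median of -0.05 against 0.06. CTSL fell by 0.66 on the log2 scale in the second step, CTSH by 0.49, CD68 by 0.41, LIPA by 0.28 and CTSB by 0.26. SQSTM1 went on rising (0.41 ± 0.05, adjusted p = 4.07e-06, limma). MCOLN1 did not pass from 24 to 48 h (-0.08 ± 0.06, adjusted p = 0.309, limma) and was higher at 72 than at 48 h (0.26 ± 0.06, adjusted p = 0.00281, limma), a call lost with quantile normalization. The counts of the later step are sensitive to scaling. With median-of-ratios scaling 2 members were higher, and 20.1% of all tested genes were higher and 23.5% lower. Without 48 h replicate 1 the number of higher members was also 2. Without 48 h replicate 2, 48 h replicate 3 or 72 h replicate 3 it was 3.

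The control knockdown libraries themselves differed from untreated cells, and more members were higher than lower. In this comparison 19 were higher, 2 lower and 10 not passed, where 17.3% of all tested genes were higher and 28.4% lower. The median was 0.26, against -0.04 for all tested genes. NPC2 stood highest among them, from 53.6 ± 1.04 to 93.2 ± 2.15 TPM (0.79 ± 0.04, adjusted p = 2.54e-11, limma), followed by NEU1 (0.67 ± 0.06), CTSS (0.67 ± 0.06) and CTSZ (0.61 ± 0.08). GUSB (-0.32 ± 0.03) and CTSC (-0.23 ± 0.04) were lower. The calls for GAA, CD68 and MAN2B1 were each lost under some alternative. Untreated and transduced cells may also differ in culture time and handling, which the sources used here do not describe and which cannot be told apart from the transduction. The effects of the hairpins were therefore tested against the control knockdown.

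ARID2 knockdown gave a mixed picture in which the largest changes were falls. Of the 31 members 14 were higher, 9 lower and 8 not passed, where 33.1% of all tested genes were higher and 29.2% lower, with a median of 0.07 against 0.02. On the scale of TPM + 1 both changes of at least 2-fold were falls, in CREG1 and CTSZ, against 3.18% of all tested genes. In TPM itself the mean of GAA rose from 3.54 to 7.76 and that of CD68 from 6.57 to 13.3, also at least 2-fold. The libraries labelled Aiolos knockdown had 18 higher, 8 lower and 5 not passed, against 37.2% higher and 30.7% lower, with a median of 0.30 against 0.05. All 3 changes of at least 2-fold in TPM + 1 were rises there, in CD68, CTSZ and CTSL, against 4.15% of all tested genes. In TPM itself the means of GAA (3.54 to 7.99) and CTSB (104 to 209) also rose at least 2-fold there. The hairpin comparisons share their control libraries. Of the 12559 tested genes 4732 were higher and 4133 lower without overlap with ARID2 knockdown, and 4898 and 3967 in the labelled libraries.

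**Figure D4:**
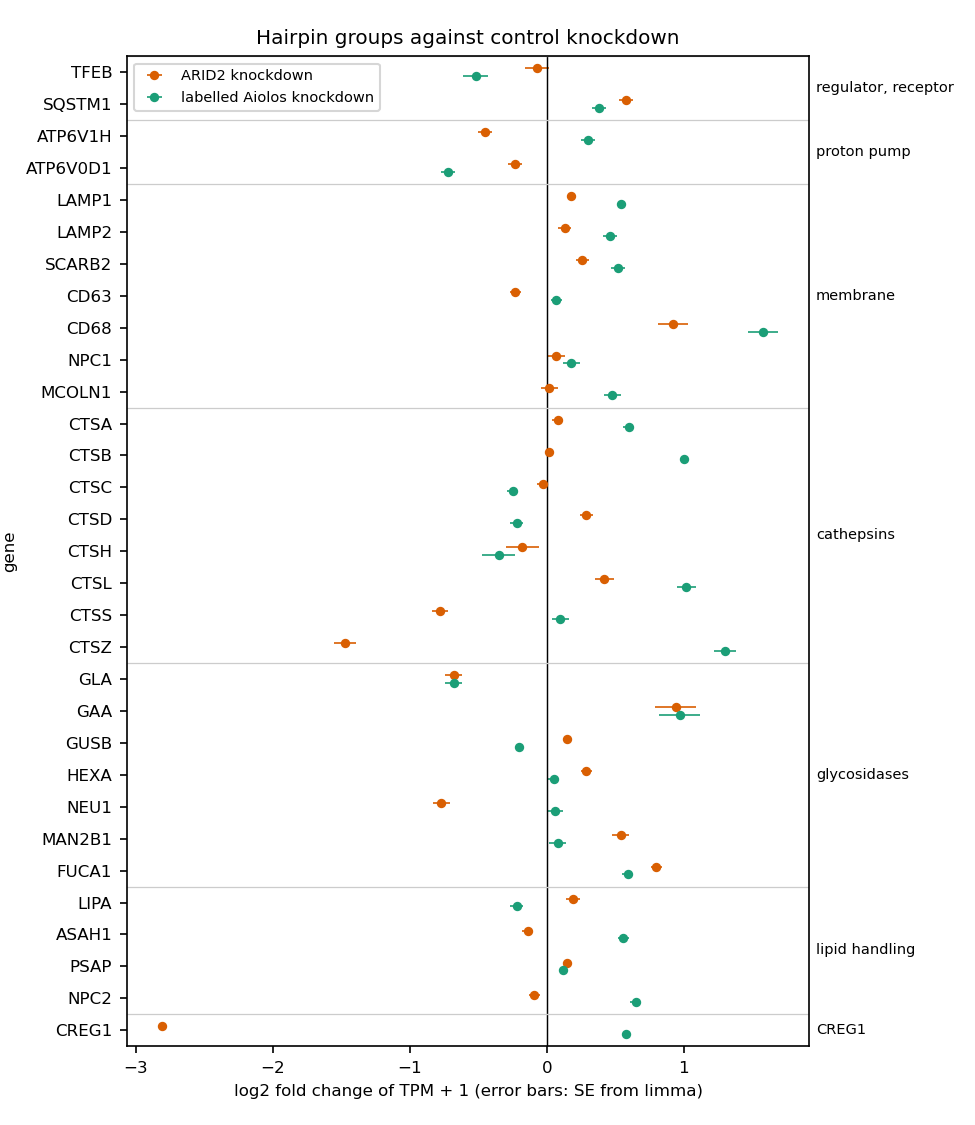
Log2 fold change of TPM + 1 against control knockdown (x axis) for each of the 31 genes (rows, by role) in both hairpin groups, ARID2 knockdown and labelled Aiolos knockdown, with bars for the standard error from limma. CREG1 lies at -2.81 with ARID2 knockdown and at 0.58 in the labelled libraries, and CTSZ at -1.47 and 1.30.

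CREG1 had the largest fall of any member in any group. It was at 314, 315 and 316 TPM in the control knockdown libraries, 44.7, 40.7 and 46.7 with ARID2 knockdown and 472, 461 and 480.1 in the labelled Aiolos libraries. The ARID2 knockdown libraries lay far below all others, and the labelled Aiolos libraries above all others. Against control the change was -2.81 ± 0.03 with ARID2 knockdown (adjusted p = 8.03e-22, limma) and 0.58 ± 0.03 in the labelled libraries (adjusted p = 9.80e-12, limma). CTSZ was at 32.2, 27.1 and 29.4 TPM in the control knockdown libraries, 8.81, 10 and 11.3 with ARID2 knockdown and 72, 83.8 and 67.8 in the labelled Aiolos libraries. This gene too fell below the control range with ARID2 knockdown (-1.47 ± 0.08, adjusted p = 8.97e-12, limma) and rose above it in the labelled libraries (1.30 ± 0.08, adjusted p = 3.54e-11, limma). CTSS was at 38.7, 42.1 and 39.1 TPM in the control knockdown libraries, 23.5, 22.8 and 22.1 with ARID2 knockdown and 41, 41.6 and 46.3 in the labelled Aiolos libraries. The ARID2 knockdown libraries were lower without overlap (-0.78 ± 0.06, adjusted p = 3.60e-10, limma), whereas the labelled libraries overlapped control (0.10 ± 0.06, adjusted p = 0.122, limma).

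NEU1 and the pump subunits were lower with ARID2 knockdown as well. NEU1 went from 93 ± 2.74 TPM in control (SD, n = 3) to 54 ± 0.716 TPM (-0.77 ± 0.06, adjusted p = 5.75e-10, limma) and was at 97.3 ± 5.33 TPM in the labelled libraries (0.06 ± 0.06, adjusted p = 0.346, limma). ATP6V1H changed by -0.45 ± 0.05 with ARID2 knockdown and 0.30 ± 0.05 in the labelled libraries. ATP6V0D1 was lower in both, by -0.23 ± 0.05 and -0.72 ± 0.05. CD63 was at 184, 191 and 193 TPM in the control knockdown libraries, 161, 161 and 162 with ARID2 knockdown and 199, 206 and 192 in the labelled Aiolos libraries. It was lower with ARID2 knockdown (-0.23 ± 0.04, adjusted p = 1.67e-05, limma) and did not pass in the labelled libraries (0.07 ± 0.04, adjusted p = 0.0844, limma), though it was called higher there with quantile normalization (0.13) and without labelled Aiolos replicate 3 (0.10). ASAH1 changed by -0.14 ± 0.04 and 0.56 ± 0.04 in that order.

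Other members rose with ARID2 knockdown, among them GAA, CD68 and FUCA1. GAA was at 3.03, 3.54 and 4.07 TPM in the control knockdown libraries, 8.08, 8.99 and 6.21 with ARID2 knockdown and 8.08, 9.55 and 6.33 in the labelled Aiolos libraries. Both hairpin groups were higher without overlap, by 0.94 ± 0.15 (adjusted p = 1.43e-05, limma) and 0.97 ± 0.15 (adjusted p = 7.13e-06, limma). CD68 was at 7.77, 5.84 and 6.1 TPM in the control knockdown libraries, 12.8, 12.7 and 14.3 with ARID2 knockdown and 20.4, 24.8 and 19.6 in the labelled Aiolos libraries. It was higher in both, by 0.92 ± 0.11 (adjusted p = 6.65e-07, limma) and 1.58 ± 0.11 (adjusted p = 1.77e-10, limma), yet remained below all drug-treated libraries. FUCA1 was at 90.7, 83.8 and 89.3 TPM in the control knockdown libraries, 154, 146 and 162 with ARID2 knockdown and 131, 126 and 141 in the labelled Aiolos libraries. Its rises were 0.80 ± 0.04 (adjusted p = 5.69e-12, limma) and 0.59 ± 0.04 (adjusted p = 4.26e-10, limma).

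MAN2B1 was at 32.9, 32 and 31.3 TPM in the control knockdown libraries, 46.5, 46.2 and 48.2 with ARID2 knockdown and 37.4, 34.2 and 30.7 in the labelled Aiolos libraries. It was higher with ARID2 knockdown (0.54 ± 0.06, adjusted p = 2.26e-07, limma), and its labelled libraries overlapped control (0.08 ± 0.06, adjusted p = 0.244, limma; called without replicate 3, at 0.15). SQSTM1 was at 264, 254 and 263 TPM in the control knockdown libraries, 389, 400.2 and 385 with ARID2 knockdown and 343, 360.4 and 315 in the labelled Aiolos libraries. Both groups exceeded control without overlap, by 0.58 ± 0.05 (adjusted p = 9.14e-09, limma) and 0.38 ± 0.05 (adjusted p = 2.77e-06, limma). HEXA (0.29 ± 0.04) and GUSB (0.15 ± 0.03) were higher with ARID2 knockdown, and in the labelled libraries HEXA did not pass (0.05 ± 0.04) and GUSB was lower (-0.20 ± 0.03).

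GLA was lower in both hairpin groups, as it was with the drug. It was at 85.3, 91.4 and 91.5 TPM in the control knockdown libraries, 56.6, 55.8 and 53.5 with ARID2 knockdown and 56.7, 60.2 and 50 in the labelled Aiolos libraries. The change was -0.68 ± 0.06 with ARID2 knockdown (adjusted p = 1.77e-08, limma) and -0.68 ± 0.06 in the labelled libraries (adjusted p = 1.38e-08, limma), with no overlap with control. CTSB was at 102, 108 and 103 TPM in the control knockdown libraries, 106, 108 and 104 with ARID2 knockdown and 209, 217 and 201 in the labelled Aiolos libraries. ARID2 knockdown overlapped control (0.02 ± 0.03, adjusted p = 0.542, limma), whereas the labelled libraries were higher without overlap (1.00 ± 0.03, adjusted p = 8.90e-16, limma). CTSL was at 30.6, 31.9 and 33.3 TPM in the control knockdown libraries, 42, 44.3 and 42.5 with ARID2 knockdown and 65.4, 71.5 and 61 in the labelled Aiolos libraries. It was higher in both groups, by 0.42 ± 0.07 (adjusted p = 1.78e-05, limma) and 1.02 ± 0.07 (adjusted p = 3.66e-11, limma), the labelled libraries holding its highest values of the study.

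CTSD was at 324, 311 and 324 TPM in the control knockdown libraries, 384, 393 and 395 with ARID2 knockdown and 274, 303 and 250.1 in the labelled Aiolos libraries. It was higher with ARID2 knockdown (0.29 ± 0.05, adjusted p = 3.26e-05, limma) and lower in the labelled libraries (-0.22 ± 0.05, adjusted p = 5.23e-04, limma), the latter lost with quantile normalization. LAMP1 was at 146, 146 and 145 TPM in the control knockdown libraries, 162, 159 and 174 with ARID2 knockdown and 211, 216 and 211 in the labelled Aiolos libraries. The rises were 0.18 ± 0.03 (adjusted p = 9.45e-05, limma) and 0.54 ± 0.03 (adjusted p = 1.05e-11, limma), without overlap. PSAP was at 1288, 1321 and 1323 TPM in the control knockdown libraries, 1465, 1454 and 1448 with ARID2 knockdown and 1414, 1486 and 1383 in the labelled Aiolos libraries. Its rises were small, 0.15 ± 0.02 (adjusted p = 2.48e-05, limma) and 0.12 ± 0.02 (adjusted p = 2.05e-04, limma), and the second turned to -0.06 with quantile normalization. TFEB was at 8.82, 9.24 and 8.9 TPM in the control knockdown libraries, 8.06, 9.87 and 7.71 with ARID2 knockdown and 5.19, 6.15 and 6.56 in the labelled Aiolos libraries. ARID2 knockdown overlapped control (-0.07 ± 0.09, adjusted p = 0.527, limma), and the labelled libraries were lower (-0.52 ± 0.09, adjusted p = 5.26e-05, limma).

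The remaining members had moderate changes. LAMP2 rose by 0.46 ± 0.05 in the labelled libraries and by 0.13 ± 0.05 with ARID2 knockdown, the latter not called with median-of-ratios scaling or without any of 4 single libraries. Those were control knockdown replicates 1 and 3 and ARID2 knockdown replicates 2 and 3. SCARB2 rose by 0.26 ± 0.05 and 0.52 ± 0.05. CTSA (0.60 ± 0.04), MCOLN1 (0.48 ± 0.06) and NPC2 (0.65 ± 0.04) rose in the labelled libraries and did not pass with ARID2 knockdown (0.08 ± 0.04, 0.02 ± 0.06 and -0.09 ± 0.04). With ARID2 knockdown the CTSA rise was called under 5 alternatives, up to 0.14, and the NPC2 fall under 2, at -0.12 and -0.09. LIPA rose with ARID2 knockdown (0.19 ± 0.05) and fell in the labelled libraries (-0.22 ± 0.05). In the labelled libraries CTSC (-0.25 ± 0.04) and CTSH (-0.35 ± 0.12) were lower, CTSH losing its call without replicate 3, and NPC1 was higher (0.18 ± 0.06), a call lost with 2 scalings. With ARID2 knockdown those 3 genes did not pass (-0.03 ± 0.04, -0.18 ± 0.12 and 0.07 ± 0.06).

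Set directly against each other, 10 members were higher and 16 lower in ARID2 knockdown than in the labelled libraries, and 5 did not pass, where 30.2% of all tested genes were higher and 35.7% lower. The median was -0.26, against -0.03. CREG1 (-3.39 ± 0.03, adjusted p = 2.17e-23, limma) and CTSZ (-2.77 ± 0.08, adjusted p = 3.71e-16, limma) differed most. CTSB (-0.97 ± 0.03), CTSS (-0.89 ± 0.06), NEU1 (-0.84 ± 0.06), NPC2 (-0.74 ± 0.04) and ATP6V1H (-0.74 ± 0.05) were also lower with ARID2 knockdown. CTSD (0.51 ± 0.05), ATP6V0D1 (0.49 ± 0.05) and MAN2B1 (0.45 ± 0.06) were higher. GLA (-0.00 ± 0.06, adjusted p = 0.962, limma) and GAA (-0.03 ± 0.15, adjusted p = 0.851, limma) did not pass.

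The 72 h drug effect was also compared with each hairpin effect, each treatment being listed at 72 h and set against its own reference group. Untreated cells are listed at 0 h and the control knockdown has no time given, so neither reference is known to match in time. Against ARID2 knockdown the difference was higher for 18 members, lower for 7 and not passed for 6, where 40.4% of all tested genes were higher and 29.1% lower, with a median of 0.40 against 0.11 for all tested genes. Both treatments raised 11 members (CD68, CTSD, FUCA1, GAA, HEXA, LAMP1, LAMP2, MAN2B1, PSAP, SCARB2 and SQSTM1), and both lowered GLA. Another 8 were higher with the drug and lower with ARID2 knockdown, namely ASAH1, ATP6V0D1, ATP6V1H, CD63, CREG1, CTSS, CTSZ and NEU1. CTSL, GUSB and LIPA were lower with the drug and higher with ARID2 knockdown. The shares of all tested genes with these joint directions were not computed, here or for the labelled libraries below. The joint counts are therefore a description without a background. The difference was 3.47 ± 0.12 for CTSZ (3.36 relative to the median gene; adjusted p = 1.76e-15, limma) and 3.03 ± 0.05 for CREG1 (2.92 relative; adjusted p = 3.04e-20, limma). For CD68 it was 2.24 ± 0.16 and for CTSB 1.76 ± 0.05, where the drug change was the larger. For MAN2B1 (0.10 ± 0.09, adjusted p = 0.33, limma) no difference was detectable. The difference for SCARB2 was -0.07 ± 0.07 (adjusted p = 0.395, limma), and it was called with median-of-ratios scaling (-0.20, adjusted p = 0.00989, limma) and with quantile normalization (-0.16, adjusted p = 0.0457, limma).

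Against the labelled Aiolos libraries the difference was higher for 15 members, lower for 11 and not passed for 5 (background 35.0% higher and 28.0% lower), with a median of 0.20 against 0.07. Here 15 members were higher and 6 lower in both, 2 (ATP6V0D1 and CTSD) were higher with the drug and lower in the labelled libraries, and CTSL, NPC1 and NPC2 were the reverse. The difference was 1.42 ± 0.07 for ATP6V0D1 (adjusted p = 7.91e-13, limma) and -1.40 ± 0.09 for CTSL (adjusted p = 6.75e-11, limma). CTSA (0.02 ± 0.06, adjusted p = 0.818, limma), LAMP2 (0.07 ± 0.07, adjusted p = 0.394, limma) and MCOLN1 (-0.03 ± 0.09, adjusted p = 0.796, limma) had no detectable difference.

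The members with and without the E-box core shown above had different tallies with the drug. At 72 h all 8 members with CACGTG in the promoter window (LAMP1, MCOLN1, GAA, CTSA, ATP6V0D1, NEU1, CTSD and CD63) were higher, with a median log2 change of 0.66. Of the 16 members without it 7 were higher and 9 lower, with a median of -0.25, and among them were both the largest rise (CD68) and the largest fall (GLA). The 7 members with no promoter entry, which are in neither count, were all higher at 72 h, so the split depends on which symbols had a window. At 48 h the counts were 8 of 8 higher with the motif, and 8 higher and 5 lower of 16 without it. At 24 h they were 7 higher and 0 lower of 8, and 10 higher and 4 lower of 16. With ARID2 knockdown 3 of the 8 were higher and 3 lower, and 8 of the 16 without the motif were higher and 3 lower. In the labelled libraries 4 of the 8 were higher and 2 lower, and 9 of the 16 were higher and 6 lower. In control knockdown against untreated cells 7 of the 8 were higher and 0 lower, and 6 of the 16 without the motif were higher and 2 lower, so the unequal tally was not limited to the drug. Over all tested genes the shares with and without CACGTG were close. At 72 h 47.2% of the 1005 genes with CACGTG were higher, against 48.4% of the 8750 without it. For TCACGTGA the shares were 58.7% of 196 genes and 48.1% of 9559. The 8 genes were read off after their values were known, so the tally is a description.

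**Figure D5:**
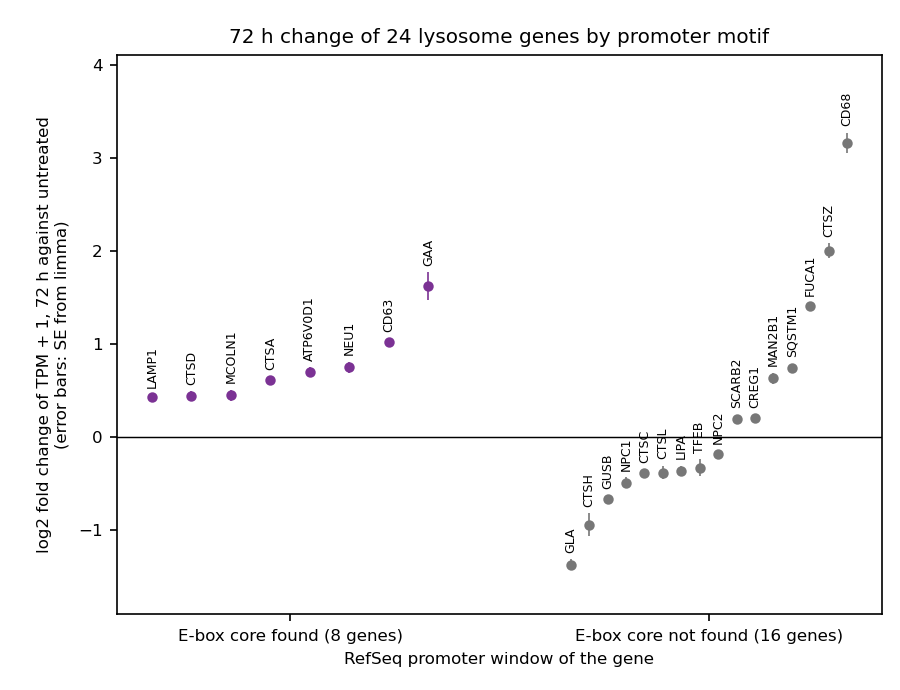
Log2 fold change of TPM + 1 at 72 h of pomalidomide against untreated cells (y axis, bars for the standard error from limma) for the 24 lysosome genes with a RefSeq promoter window, split by whether CACGTG was found in it (x axis). The 8 genes with the motif lie between 0.43 and 1.62, and the 16 without it between -1.37 and 3.16.

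Genes next to the members in the same pathway were read from wider lists, whose 72 h counts stand beside 48.1% higher and 31.6% lower among all tested genes. Genes are named from these lists only where a group mean reached 5 TPM and the groups did not overlap. Of 39 tested hydrolases outside the 31, 25 were higher and 11 lower at 72 h (median 0.42, or 0.26 relative to the median gene). LGMN, an asparaginyl protease that processes cathepsins, went from 112 ± 4.38 to 739 ± 21 TPM (2.71 ± 0.03, adjusted p = 4.13e-23, limma), and the cathepsin CTSO from 59.1 ± 2.6 to 281 ± 13 TPM (2.23 ± 0.05). The acid nuclease DNASE2 changed by -0.64 ± 0.06. Of 36 other proteins listed as of or near the membrane 27 were higher and 5 lower (median 0.59, relative 0.43). SLC15A3, a peptide and histidine transporter, changed by 2.88 ± 0.12, from a mean of 0.564 TPM in untreated cells to 10.5 TPM. SIDT2 was at -0.71 ± 0.07, and PLIN2, a lipid droplet protein that the list also holds, at -0.40 ± 0.07. Of 17 other V-ATPase subunits 14 were higher and 2 lower (median 0.31, relative 0.15), with TCIRG1 (0.87 ± 0.05) and ATP6AP1 (0.53 ± 0.04) higher and ATP6V0B (-0.36 ± 0.04) and ATP6V0E2 (-0.30 ± 0.06) lower.

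Sorting, autophagy and regulation showed similar counts at 72 h. Of 29 genes of mannose 6-phosphate tagging and sorting 21 were higher and 2 lower (median 0.34, relative 0.19). GNPTG, a subunit of the enzyme that makes the tag, changed by 1.21 ± 0.07, and IGF2R, a receptor for it, by 1.03 ± 0.05, while the adaptor genes AP3M1 (-0.30 ± 0.04) and AP1S1 (-0.29 ± 0.07) were lower. Of 38 autophagy genes 29 were higher and 5 lower (median 0.51, relative 0.36), with WDFY3 at 1.69 ± 0.07 and the kinase ULK1 at 1.47 ± 0.07, and with ATG3 at -0.58 ± 0.07 and UVRAG at -0.26 ± 0.08. Of 26 regulators 16 were higher and 5 lower (median 0.33, relative 0.17). TFE3, a relative of TFEB, went from 47.2 ± 2.06 to 93.1 ± 2.34 TPM (0.97 ± 0.04, adjusted p = 3.08e-14, limma), against the lower TFEB of the same libraries. RRAGB, a member of the GTPase family that brings mTORC1 to lysosomes, was at 0.93 ± 0.09, and DEPDC5, part of a complex that restrains mTORC1, at -0.81 ± 0.05, with FNIP2 at -0.38 ± 0.06. Of 6 cathepsin inhibitors 4 were higher and 1 lower, among them CD74 (1.16 ± 0.04), the invariant chain, and CST3 (1.07 ± 0.07), cystatin C. All 7 lists were chosen with earlier results of these data known.

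With ARID2 knockdown the other hydrolases had 21 higher and 11 lower of 39 (median 0.21), the other membrane proteins 18 and 9 of 36 (0.15) and the other V-ATPase subunits 5 and 5 of 17 (0.07), against 33.1% higher and 29.2% lower among all tested genes. In the libraries labelled Aiolos knockdown those counts were 26 and 5 (0.32), 25 and 3 (0.43) and 6 and 3 (0.01), against 37.2% and 30.7%. The V-ATPase shares of higher calls were thus near those of all tested genes in both groups. The autophagy genes had 20 higher and 8 lower of 38 with ARID2 knockdown and 27 higher and 6 lower in the labelled libraries.

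Several of these genes are also known from myeloid cells, so markers of other cell types were read beside them. Of 16 myeloid markers 15 were listed and 7 passed the filter, of which 6 were higher at 24 h, 6 at 48 h and 5 at 72 h, and 0 lower at any of these times. Among all tested genes 35.1%, 43.8% and 48.1% were higher at these times. A marker near 0 in untreated cells passes the filter only through groups where it is higher, so it could hardly be called lower. The summed level of the listed myeloid markers ranged from 54.6 to 63.2 TPM in untreated libraries, 96.5 to 108 at 24 h, 129 to 141 at 48 h and 121 to 138 at 72 h. Most of it was CST3, which many cell types make, at 54.8 ± 3.35 TPM in untreated cells and 116 ± 8.46 TPM at 72 h. CD14 was at 0.603 ± 0.242 TPM in untreated cells and 3.67 ± 0.882 TPM at 72 h, ITGAM at 0.13 ± 0.0656 and 1.62 ± 0.254, and CD163 at 0.0354 ± 0.0614 and 1.11 ± 0.257. MPO was at 0 in all 12 libraries of the drug series, and S100A8, TYROBP and FCGR3A were at 0 in all libraries of 24 and 72 h. Those 3 genes were not all at 0 in the untreated and 48 h libraries. The listed markers at 0 in every library of a group, MPO included, numbered 2 in untreated cells. They numbered 6 at 24 h, 2 at 48 h and 5 at 72 h. The sum was 57.1 to 62.6 TPM in control knockdown, 66.9 to 74.2 in ARID2 knockdown and 64.5 to 73.0 in the labelled libraries. The part of these genes in the CD68, CTSS and CTSZ results was not tested. Summed markers of T and NK cells were 5.62 to 6.40 TPM in untreated libraries and 11.8 to 13.0 TPM at 72 h. Of the 4 that were tested 2 were higher and 2 lower at 72 h, NCAM1 going from 1.72 ± 0.0852 to 8.7 ± 0.429 TPM, CD3E from 1.35 ± 0.43 to 0.282 ± 0.232 TPM and CD247 from 2.21 ± 0.509 to 0.615 ± 0.238 TPM. Markers of epithelial and stromal cells summed to 6.53 to 7.18 TPM in untreated libraries and 1.38 to 1.61 at 72 h. They summed to 17.8 to 22.3 TPM in control knockdown, 4.69 to 5.58 with ARID2 knockdown and 3.79 to 6.42 in the labelled libraries. Most of that sum in control knockdown was PECAM1, a gene of endothelial and blood cells, at 17.9 ± 1.6 TPM. Erythroid markers summed to 13.2 to 19.9 TPM in control knockdown, 26.8 to 28.9 with ARID2 knockdown and 3.74 to 7.97 in the labelled libraries. Most of it was HBB, at 15.2 ± 3.18, 27.8 ± 0.976 and 4.01 ± 0.472 TPM in that order. In the drug series the erythroid sum was 11.8 to 19.2 TPM. The part of these markers in the lysosome results was not tested. In bulk RNA more cells of a type and more RNA per cell cannot be told apart.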

How the data were processed

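The authors deposited 1 table of TPM values for 17691 gene symbols in 21 libraries of MM.1S cells, 3 for each of 7 groups. Libraries were made from total RNA with the TruSeq RNA v2 kit, per the labels' protocols, and the submitters' processing notes name the build hg38. Which aligner, quantifier and annotation were used is not given in the sources used here. TPM keeps no depth, so depth is unknown and no counting intervals are given. Values were analysed as log2(TPM + 1) for the 12559 genes that reached 1 TPM in 3 or more libraries. All libraries entered 1 limma fit (version 3.58.1, R 4.3.3) with 7 group means and a trend, 11 contrasts, two-sided tests and Benjamini-Hochberg adjustment within each contrast at 0.05. All adjusted p-values are from limma. The fit was run on simulated data with independent normal noise and changes in a small part of the genes. That setting lacks shared cultures, scaling shifts and changes in most genes, so it cannot check the calls against these. Every-library values are given for the 12 members with the largest called, non-overlapping change and a mean of at least 5 TPM, plus TFEB, LAMP1, CTSD and SQSTM1, and for wider lists the 2 largest rises and falls at 72 h under the same 2 limits are named, apart from some that are not reported here. The members and lists were chosen with earlier results of these data known. Same-numbered libraries did not deviate together (correlations of -0.13 to 0.11 over 63 pairs, 1 over 0.1), so the numbers were not taken as pairs.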

Additional observations from a re-analysis of the deposited data

Results flagged for a closer look

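Members that moved in opposite directions, both changes called, with the 72 h drug and in a hairpin group, and whose difference was called as well (limma, adjusted over all tested genes), are listed here as values. Between the drug and ARID2 knockdown the log2 difference was 3.47 for CTSZ (2.0 with the drug, -1.47 with the hairpin, adjusted p = 1.76e-15), 3.03 for CREG1 (0.21 and -2.81, adjusted p = 3.04e-20) and 2.07 for CTSS (1.29 and -0.78, adjusted p = 1.25e-14). It was 1.53 for NEU1, 1.24 for CD63, 0.94 for ATP6V1H, 0.93 for ATP6V0D1 and 0.47 for ASAH1, all higher with the drug and lower with the hairpin. It was -0.81 for GUSB, -0.80 for CTSL and -0.55 for LIPA, which were lower with the drug and higher with the hairpin. The drug rise of CREG1 was not called with median-of-ratios scaling.

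Between the drug and the libraries labelled Aiolos knockdown the difference was 1.42 for ATP6V0D1 (0.70 and -0.72, adjusted p = 7.91e-13) and 0.65 for CTSD (0.44 and -0.22, adjusted p = 6.32e-08), both higher with the drug. It was -1.40 for CTSL (-0.38 and 1.02, adjusted p = 6.75e-11), -0.84 for NPC2 and -0.67 for NPC1, which were lower with the drug. The hairpin changes of CTSD and NPC1 lost their calls under some scalings. The 16 differences themselves kept their call under all 30 alternatives run.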

How the results depend on the processing

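Under 30 alternatives to the processing, 286 of 341 member results kept their direction and their side of the threshold. The counts of members called higher and lower stayed within 1.5 times the reported count in all comparisons but that of 48 with 72 h. There the 5 higher members became 2 with median-of-ratios scaling, 1 with quantile normalization, 2 without mitochondrial mRNA and 3 with only the 2 groups compared in the fit, and the 13 lower became 20 with quantile normalization. Leaving out single libraries gave 2 to 6 higher and 9 to 14 lower. Quantile normalization reversed 3 small changes: PSAP in the libraries labelled Aiolos knockdown (-0.06, adjusted p = 0.0224, limma), and CTSC (-0.10, adjusted p = 0.0496, limma) and CD63 (-0.09, adjusted p = 0.0489, limma) from 48 to 72 h. The cause of these changes was not tested. With the replicate block 22 members were higher and 9 lower at 72 h, 14 and 9 with ARID2 knockdown and 18 and 8 in the labelled libraries, the same counts as without the block. The filter of 5 TPM left out CTSH. TPM keeps no depth, so no counting error can be given for low genes such as CTSH and GAA. Their group means rest on 3 libraries each, and their limma standard errors on a spread pooled over all 21 libraries.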
